A study of Mus musculus with 6 samples.

Results

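Ceramide and sphingolipid metabolism was followed at the mRNA level in C2C12 myotubes, the multinucleated muscle cells that this mouse myoblast line forms when serum is lowered. The gene set held 34 listed enzymes, regulators and receptors of the pathway. Of these, 33 had a probe set tied to 1 gene symbol, out of 19938 genes measured. Cers1 could not be followed, because its probe set also carries the name of Gdf1. A gene with several probe sets is given by the one with the highest mean over the 6 arrays; this applied to Acer2 alone. Of the 33 genes, 7 were of low signal, meaning a mean below the median of all named probe sets (5.81): Sptlc3, Sptssb, Cers4, Degs2, Smpd3, Acer2 and S1pr3.

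Sphingolipids are membrane lipids built on a sphingoid base. Serine palmitoyltransferase joins serine to palmitoyl-CoA in the endoplasmic reticulum, and a reductase, the ceramide synthases and a desaturase turn the product into ceramide. Ceramide is then converted to sphingomyelin, glucosylceramide or ceramide 1-phosphate, or is split by ceramidases into sphingosine, which kinases turn into the signalling lipid sphingosine 1-phosphate. Because palmitate supplies the first step, ceramide is much studied in muscle exposed to saturated fat.

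Cells were transfected with 10 nM siRNA against Plin2, which encodes the lipid droplet coat protein perilipin 2, or with a scrambled siRNA. Under each siRNA, cells received 200 µM palmitate (saturated), 200 µM oleate (monounsaturated) or no fatty acid for 20 h. The fatty acids were bound to BSA at 2.5 molecules per BSA, and the controls received BSA alone. All cells had been grown in 10% serum and differentiated in 2% serum, and each of the 6 conditions was measured on 1 array without replicates. Values are log2 expression. The labels do not state if the 6 cultures were independent, and a p-value here therefore reflects no more than the spread among these arrays.

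Plin2 itself was at 7.45 with palmitate, 7.63 with oleate and 6.95 with BSA in Plin2 siRNA cells, against 10.10 with palmitate, 10.03 with oleate and 9.29 with BSA in scrambled siRNA cells. It fell by 2.47 (SE 0.08, limma adjusted p = 2.3e-08). Arrays of the same siRNA correlated at 0.991 to 0.994 over all probe sets, and arrays of different siRNAs at 0.987 to 0.992. All 13 myotube markers lay above the median signal, while all 5 endothelial, all 4 macrophage and all 5 adipocyte markers lay below it. Among 6 fibroblast and matrix markers only 1, Thy1, lay below the median. With the siRNA 1 of these 6 rose and 2 fell past the threshold. Of all genes 17.1% passed it, and of genes with signal above the median, where all but Thy1 lay, 31.0% did. A list of 6 is too short to set against either share. Markers of cell state also passed the threshold with the siRNA; the myotube, myoblast and proliferation markers measured all had signal above the median, where 31.0% of all genes passed. Of the 13 myotube genes 8 fell and 1 rose, and the mean over the list was 10.99 to 11.09 in Plin2 siRNA arrays and 11.05 to 11.41 in scrambled siRNA arrays. Of 7 undifferentiated myoblast markers, 3 rose and 1 fell. The list means were 8.54 to 8.71 in Plin2 siRNA arrays and 8.29 to 8.45 in scrambled siRNA arrays. Id3 had by far the largest change, at 1.596, while Myf5 was at 0.63 and Id1 at 0.42. Cdh15 went the other way, at -0.62, and Ccnd1 and Vcam1 were fitted below 0 without passing. With 4 markers fitted above 0 and 3 below, the means do not show a shift of the list as a whole. Of 5 proliferation markers measured, 0 rose and 2, Mcm6 and Rrm2, fell. All 5 were fitted below 0, from -0.90 to -0.0042, but Mki67, Top2a and Cdk1 did not pass. A list of 5 is too short to set against a share of all genes. The list means were 7.37 to 7.53 in Plin2 siRNA arrays and 7.80 to 7.98 in scrambled siRNA arrays, a gap that rests largely on Mcm6 and Rrm2. The part of the cell state markers in the sphingolipid changes below was not tested. In bulk RNA, fewer cells of a type and less RNA per cell cannot be told apart.

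The siRNA comparison asked which sphingolipid genes differ when perilipin 2 is knocked down. With Plin2 siRNA, 5 of the 33 genes rose (Ormdl1, S1pr3, Sphk2, Asah1 and Sptssa) and 4 fell (Cerk, Cers6, Sgms1 and Cers2), at a limma adjusted p below 0.05. The other 24 did not pass the threshold. Over all 19938 genes, 8.31% rose, 8.80% fell and 17.1% did either, against 15.2%, 12.1% and 27.3% of the sphingolipid genes. Calls were more frequent among genes of high signal, and most of the set was of high signal. Among genes with signal above the median, 31.0% passed the threshold, and among the 26 such sphingolipid genes 30.8% did, a share close to that background. The median change over the set was -0.011, against 0.0044 over all genes, and its changes ran from -0.88 to 0.63. All 3 Plin2 siRNA arrays lay above all 3 scrambled siRNA arrays for 9 of 33 genes (27.3%, against 15.3% of all genes). They lay below them for 4 of 33 (12.1%, against 15.0% of all genes). Neither of these shares of all genes is matched for signal, so the 27.3% is not shown to be an excess. The counts by role below come from few genes each and are too small to set against the shares of all genes.

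**Figure D1:**
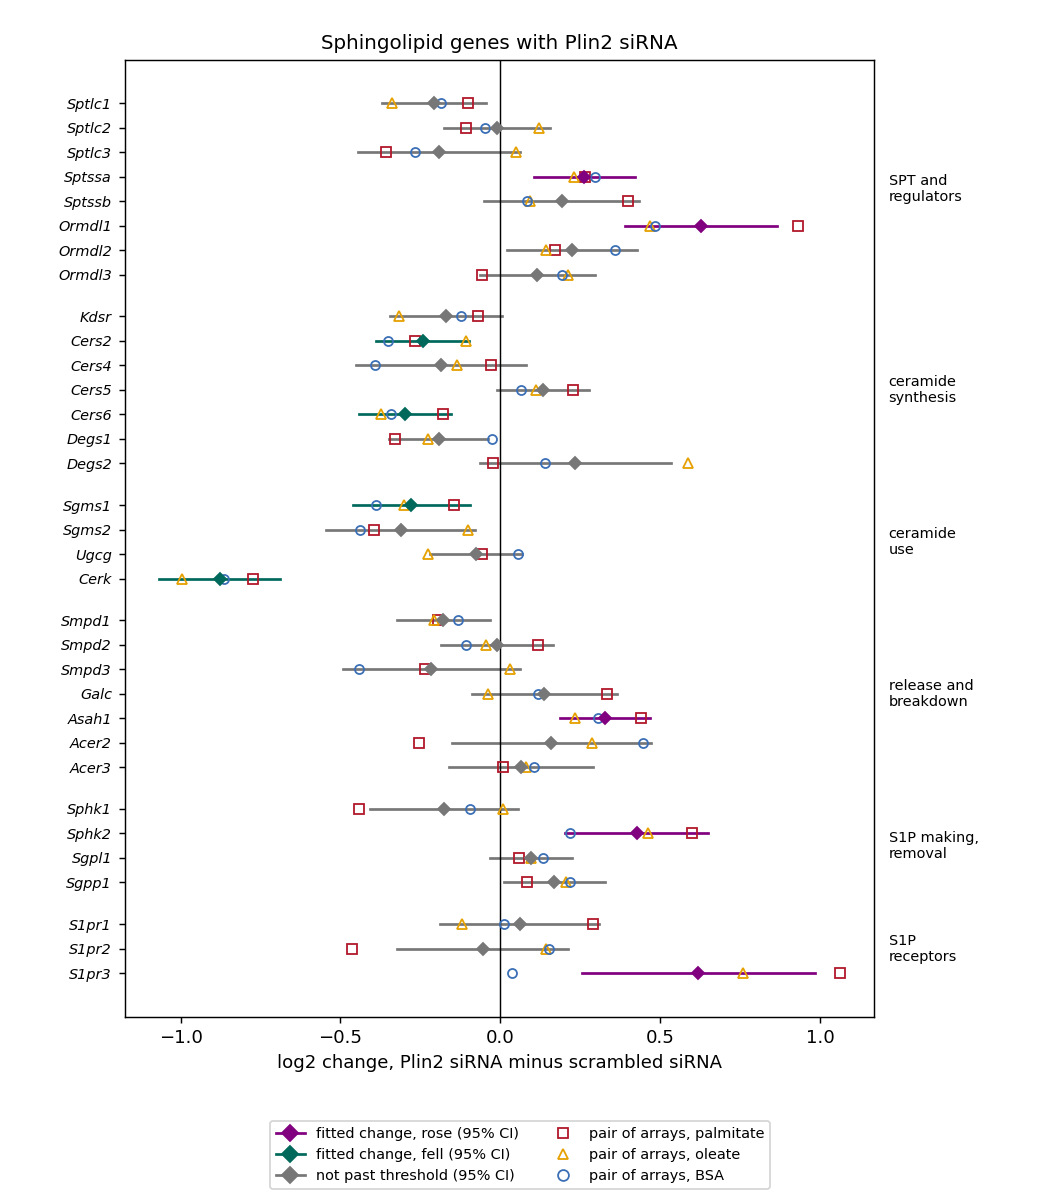
Change of each of the 33 sphingolipid genes with Plin2 siRNA, as the log2 difference from scrambled siRNA, grouped by role. Diamonds and bars give the fitted change with its 95% confidence interval, coloured where the gene rose or fell, and open symbols give the difference within each treatment; Cerk stands furthest to the left, at -0.88, and Ormdl1 and S1pr3 furthest to the right, at 0.63 and 0.62.

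Serine palmitoyltransferase and its regulators were represented by 8 genes, of which 2 rose and 0 fell. Ormdl1 encodes a small membrane protein that restrains serine palmitoyltransferase when ceramide is plentiful. Its expression was 7.31 with palmitate, 7.08 with oleate and 7.20 with BSA in Plin2 siRNA cells, against 6.38 with palmitate, 6.61 with oleate and 6.71 with BSA in scrambled siRNA cells. The groups did not overlap, and the gap was widest with palmitate, at 0.93, where the scrambled siRNA array was the lowest of the 6. The fitted change was 0.63 (SE 0.11, adjusted p = 0.0021), a 1.55-fold higher level. Sptssa, a small activating subunit of the enzyme, had 8.34 with palmitate, 8.51 with oleate and 8.47 with BSA in Plin2 siRNA cells, against 8.08 with palmitate, 8.28 with oleate and 8.17 with BSA in scrambled siRNA cells. It was higher under every treatment, by 0.23 to 0.30, and the fitted change was 0.26 (SE 0.07, adjusted p = 0.027). The main subunits of the enzyme did not pass the threshold. Sptlc1 changed by -0.21 (adjusted p = 0.082), Sptlc2 by -0.011 (adjusted p = 0.96) and the low-signal Sptlc3 by -0.19 (adjusted p = 0.34). The remaining members of this group were all fitted above 0 without passing, with Ormdl2 at 0.22 (adjusted p = 0.14), Ormdl3 at 0.11 (adjusted p = 0.44) and Sptssb at 0.19 (adjusted p = 0.31).

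The promoters of the 2 genes with the largest changes, Ormdl1 and Cerk, are shown as the DNA upstream of the genes on which the siRNA result chiefly rests. They come from RefSeq on GRCm38.p6 and run from 250 bases before to 50 bases after the annotated start, on the strand of the gene. Ormdl1 lies on the + strand at chr1:53296845-53297144, and Cerk, the kinase described below, on the - strand at chr15:86186092-86186391. Capitals mark matches on either strand to the GC box (GGGCGG), the CCAAT box (CCAAT), the TATA box (TATAAA) or the nuclear receptor half-site (AGGTCA).
Ormdl1: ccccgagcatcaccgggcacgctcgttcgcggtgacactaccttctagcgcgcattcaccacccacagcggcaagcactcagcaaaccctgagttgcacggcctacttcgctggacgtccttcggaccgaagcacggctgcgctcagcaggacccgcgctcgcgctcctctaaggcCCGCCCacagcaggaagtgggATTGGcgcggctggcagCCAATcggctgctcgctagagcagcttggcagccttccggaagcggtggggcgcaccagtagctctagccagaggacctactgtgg
Cerk: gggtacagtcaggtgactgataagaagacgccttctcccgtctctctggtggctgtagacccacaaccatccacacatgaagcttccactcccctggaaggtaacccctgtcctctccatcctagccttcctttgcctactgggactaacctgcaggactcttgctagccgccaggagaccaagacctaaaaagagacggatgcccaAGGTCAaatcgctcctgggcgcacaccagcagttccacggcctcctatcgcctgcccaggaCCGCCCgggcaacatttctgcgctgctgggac
The Ormdl1 window, with 65.7% G and C, held 1 GC box and 2 CCAAT boxes, and the Cerk window, with 58.3% G and C, held 1 GC box and 1 half-site. Over all 32851 promoter windows, 35.7% held a GC box, 37.4% a CCAAT box, 13.6% a TATA box and 16.3% the half-site, so each is found in many windows. RefSeq windows were on hand for 8 of the 9 genes past the threshold, Asah1 being the other.

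Ceramide synthesis was represented by 7 genes, of which 0 rose and 2 fell. Both that fell encode ceramide synthases, the enzymes that attach a fatty acyl chain to the sphingoid base. Cers6, which prefers palmitoyl-CoA and similar long chains, had 9.59 with palmitate, 9.78 with oleate and 9.72 with BSA in Plin2 siRNA cells, against 9.77 with palmitate, 10.15 with oleate and 10.06 with BSA in scrambled siRNA cells. It was lower under every treatment, with differences of -0.37 to -0.18, but the scrambled siRNA palmitate array lay within the range of the Plin2 siRNA arrays. The fitted change was -0.30 (SE 0.07, adjusted p = 0.0088). Cers2, which makes very-long-chain ceramides, had 10.12 with palmitate, 10.23 with oleate and 9.92 with BSA in Plin2 siRNA cells, against 10.39 with palmitate, 10.34 with oleate and 10.27 with BSA in scrambled siRNA cells. The groups did not overlap, and the smallest gap, with oleate, was -0.11. Its fitted change was -0.24 (SE 0.07, adjusted p = 0.026). Cers5, another long-chain synthase, was fitted the other way at 0.13 without passing (adjusted p = 0.22), and the low-signal Cers4 at -0.19 (adjusted p = 0.39). Kdsr, the reductase of the second step, was at -0.17 (adjusted p = 0.20). Degs1, the desaturase that completes ceramide, was lower in all 3 Plin2 siRNA arrays, yet its change of -0.19 did not pass (adjusted p = 0.090). Degs2, a desaturase and hydroxylase, was of low signal at 0.23 (adjusted p = 0.32).

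Of the 4 genes that convert ceramide to other lipids, 2 fell and 0 rose, and all 4 were fitted below 0. Of all 19938 genes, 9739 were fitted below 0, and 4 genes are too few to set against that share. Cerk encodes ceramide kinase, which makes ceramide 1-phosphate. Its expression was 6.90 with palmitate, 6.98 with oleate and 6.77 with BSA in Plin2 siRNA cells, against 7.67 with palmitate, 7.98 with oleate and 7.63 with BSA in scrambled siRNA cells. The groups were well apart, and the 3 within-treatment differences of -0.77 with palmitate, -1.0 with oleate and -0.86 with BSA were each larger than the range of either group. Cerk fell by 0.88 (SE 0.09, adjusted p = 4.2e-05), to 0.544 times its level with scrambled siRNA, the largest change of the set. Sgms1, the sphingomyelin synthase of the Golgi, had 7.50 with palmitate, 7.65 with oleate and 7.51 with BSA in Plin2 siRNA cells, against 7.64 with palmitate, 7.96 with oleate and 7.90 with BSA in scrambled siRNA cells. It was lower under each treatment, although the Plin2 siRNA oleate array was level with the scrambled siRNA palmitate array. The fitted change was -0.28 (SE 0.08, adjusted p = 0.041). Sgms2, the sphingomyelin synthase of the plasma membrane, was at -0.31 without passing (adjusted p = 0.070), and Ugcg, which makes glucosylceramide, at -0.08 (adjusted p = 0.54).

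Among 7 genes that release ceramide from other lipids or break it down, 1 rose and 0 fell. Asah1 encodes acid ceramidase, which splits ceramide in the lysosome. It had 10.48 with palmitate, 10.37 with oleate and 10.29 with BSA in Plin2 siRNA cells, against 10.04 with palmitate, 10.14 with oleate and 9.99 with BSA in scrambled siRNA cells. The groups did not overlap, and the fitted change was 0.33 (SE 0.06, adjusted p = 0.0044), a 1.25-fold higher level. The acid sphingomyelinase gene Smpd1 was at -0.18 (adjusted p = 0.098), the neutral sphingomyelinase genes Smpd2 at -0.011 (adjusted p = 0.96) and Smpd3 at -0.22 (adjusted p = 0.33), and Galc, the lysosomal galactosylceramidase, at 0.14 (adjusted p = 0.47). The alkaline ceramidase gene Acer3 was at 0.06 (adjusted p = 0.78). The probe sets of Acer2, another alkaline ceramidase, gave 0.16 (adjusted p = 0.56) and -0.04 (adjusted p = 0.89), both without passing.

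Of 4 genes that make or remove sphingosine 1-phosphate, 1 rose and 0 fell. Sphk2, the sphingosine kinase found largely in the nucleus and mitochondria, had 6.96 with palmitate, 6.91 with oleate and 7.00 with BSA in Plin2 siRNA cells, against 6.36 with palmitate, 6.45 with oleate and 6.78 with BSA in scrambled siRNA cells. The 3 Plin2 siRNA arrays lay within a narrow band above all scrambled siRNA arrays, and the gap was smallest with BSA, at 0.22. The fitted change was 0.43 (SE 0.10, adjusted p = 0.013). Sphk1, the mainly cytosolic kinase, was at -0.18 (adjusted p = 0.33). Sgpl1, the lyase that destroys sphingosine 1-phosphate, was at 0.10 (adjusted p = 0.35), and Sgpp1, a phosphatase that returns it to sphingosine, at 0.17 (adjusted p = 0.15). Both of these were higher in all 3 Plin2 siRNA arrays without passing.

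Among the 3 receptors for sphingosine 1-phosphate, S1pr3 rose and the other two did not pass. S1pr3, a low-signal gene here, had 6.24 with palmitate, 5.85 with oleate and 5.66 with BSA in Plin2 siRNA cells, against 5.18 with palmitate, 5.10 with oleate and 5.63 with BSA in scrambled siRNA cells. The difference lay in the fatty acid arrays, at 1.06 with palmitate and 0.76 with oleate, while with BSA it was 0.04 and the 2 arrays nearly coincided. The fitted change was 0.62 (SE 0.17, adjusted p = 0.025), and without either palmitate array it was 0.40 and no longer passed (adjusted p = 0.13). S1pr1 was at 0.06 (adjusted p = 0.82) and S1pr2 at -0.06 (adjusted p = 0.85).

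**Figure D2:**
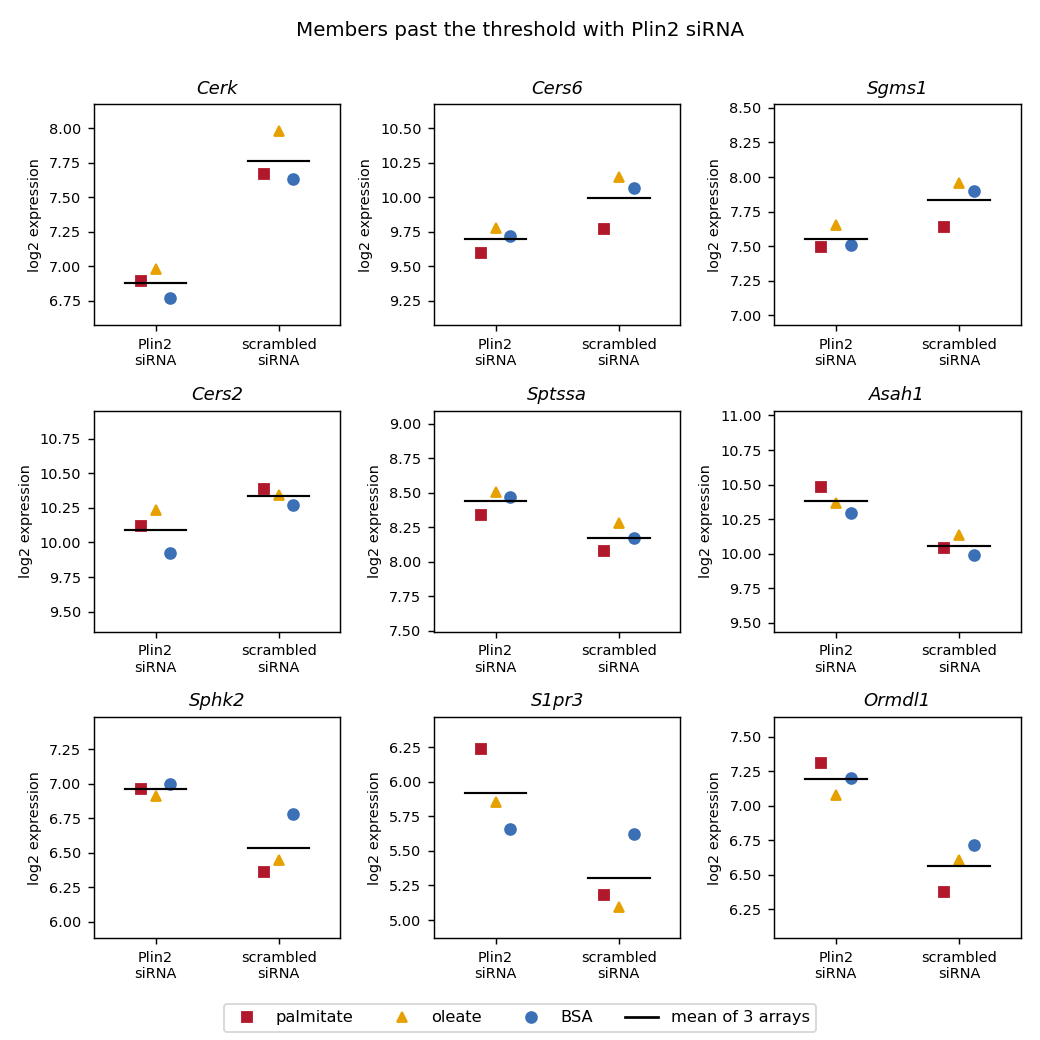
Log2 expression in each of the 6 arrays for the 9 sphingolipid genes past the threshold, with Plin2 siRNA left and scrambled siRNA right in each panel, symbols for the treatments and lines for the means of 3 arrays. Every panel spans the same log2 range; Cerk, Cers2, Sptssa, Asah1, Sphk2, S1pr3 and Ormdl1 show groups that do not overlap, while Cers6 and Sgms1 overlap at the scrambled siRNA palmitate array.

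Leaving out single arrays ended some of these calls. Removing 1 array from the additive model also removes the difference within its treatment from the siRNA estimate. Cerk (-0.93 to -0.82) and Ormdl1 (0.48 to 0.71) passed the threshold under all 13 alternatives that apply to them. These are not 13 separate checks, because leaving out either array of a treatment gives the same siRNA estimate. Without either BSA array, Sptssa, Cers2, Cers6 and Sgms1 no longer passed. Without either palmitate array, Sptssa, Cers2, Sphk2 and S1pr3 no longer passed, and without either oleate array Sgms1 alone was lost.

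An added interaction term asked whether the siRNA difference with a fatty acid departs from that with BSA. It passed for 0 of 33 sphingolipid genes and for 0% of all genes (limma, 1 residual degree of freedom). At an unadjusted p below 0.05 the sphingolipid gene was S1pr3 alone (0.87, SE 0.28, adjusted p = 1.00), against 2.56% of all genes.

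The fatty acid comparisons asked whether a saturated or a monounsaturated fatty acid at the same dose and time moves the pathway. With oleate, 24 of 33 genes were fitted above their level with BSA, led by Galc, Sgms2 and Ugcg, but none passed the threshold. With palmitate, 16 were fitted above and 17 below BSA, again with none past the threshold. Of all 19938 genes, 8871 were fitted above BSA with oleate and 9502 with palmitate. Both comparisons use the same BSA arrays, so their values are set side by side and not related to each other. Across all genes, limma called 0.0802% with oleate against BSA, 0.0100% with palmitate against BSA and 0.281% between palmitate and oleate, and 0 of 33 sphingolipid genes in each. At an unadjusted p below 0.05 stood 9 sphingolipid genes with oleate (27.3%, against 6.22% of all genes), 2 with palmitate (6.06%, against 5.20%) and 7 between palmitate and oleate (21.2%, against 9.12%). Every one of these genes had signal above the median, and the shares of all genes at this p are not matched for signal. The median 95% interval of a fatty acid change in this set reached 0.23 to either side.

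The direction with oleate held under both siRNAs for many of the genes. Oleate was above BSA with both siRNAs for 19 of 33 genes (57.6%, against 23.1% of all genes) and below it for 4 (12.1%, against 31.6%). Among genes with signal above the median, oleate was above BSA for 17 of 26 sphingolipid genes (65.4%), against 27.4% of all such genes. Of the 38 further pathway genes described below, oleate was above BSA with both siRNAs for 16, so the direction is not particular to the set. The median change over the set was 0.12 in Plin2 siRNA cells and 0.08 in scrambled siRNA cells, against -0.0053 and -0.03 over all genes. With palmitate, 8 genes lay above BSA with both siRNAs (24.2%, against 23.2% of all genes) and 10 below (30.3%, against 26.5%), shares close to the background. The median change with palmitate was -0.0024 over the set.

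The comparison of palmitate with oleate uses the same oleate arrays as that of oleate with BSA, so high values in those arrays enter both counts, and the 2 are not separate results. Palmitate lay below oleate with both siRNAs for 16 of 33 genes (48.5%, against 23.3% of all genes) and above it for 2, Ormdl2 and S1pr3 (6.06%, against 28.4%). Among genes with signal above the median, palmitate was below oleate for 13 of 26 (50.0%), against 29.5%. Of the 38 further pathway genes, palmitate was below oleate with both siRNAs for 15. The median change over the set was -0.11 in Plin2 siRNA cells and -0.09 in scrambled siRNA cells, against -0.01 and 0.04 over all genes. These differences were small, and each pair of arrays is a single comparison.

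**Figure D3:**
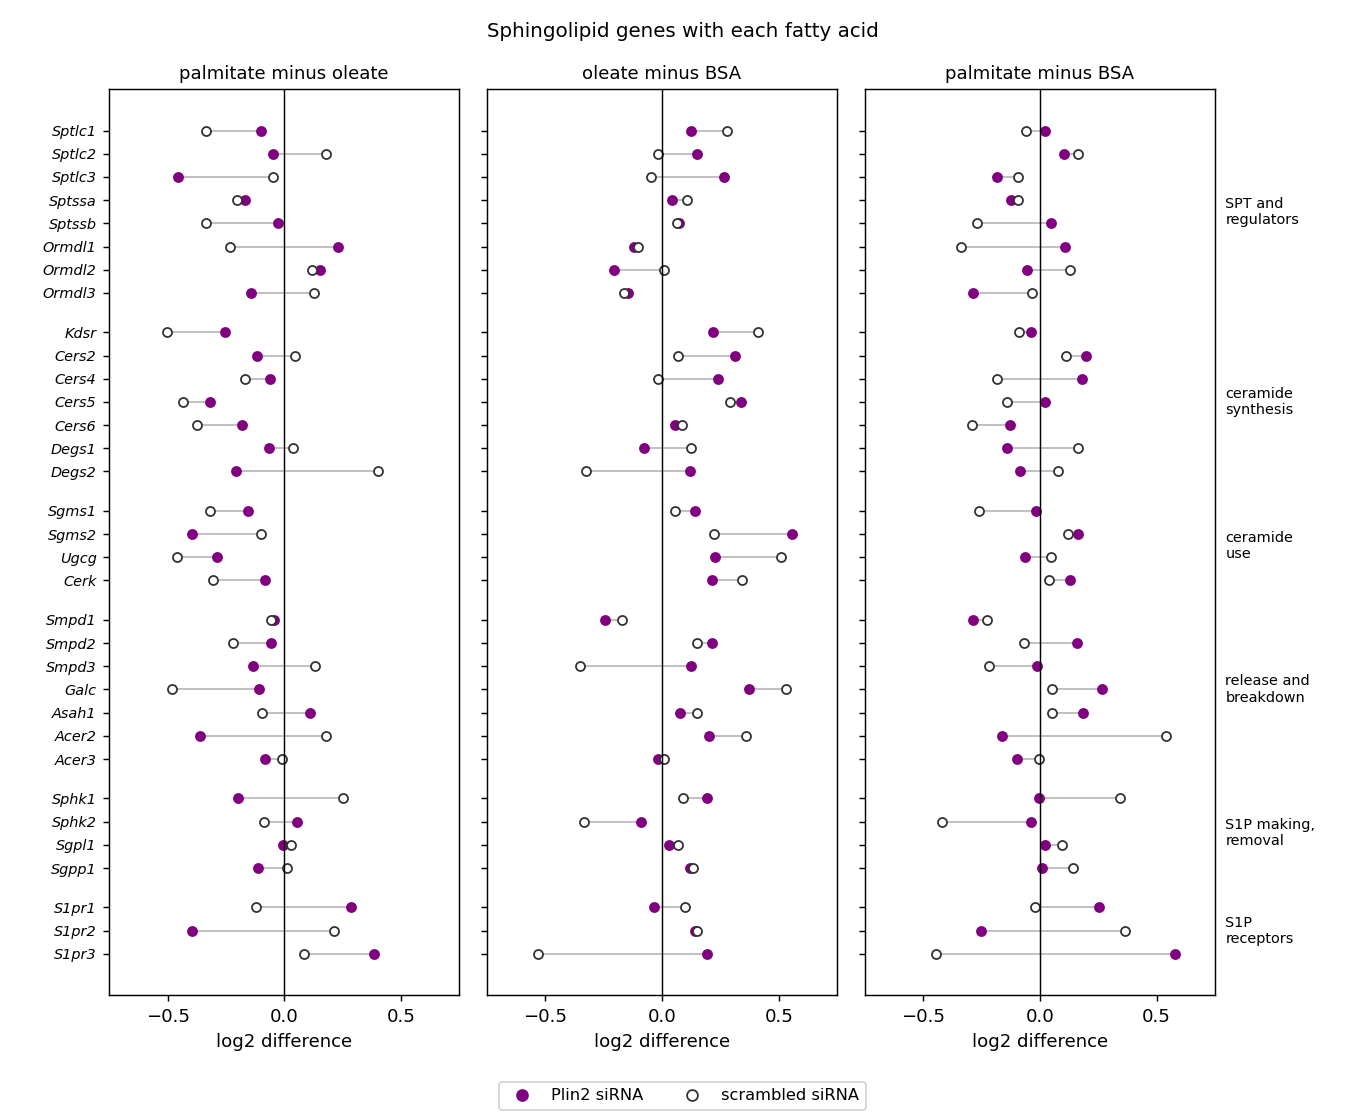
Log2 difference of each sphingolipid gene between palmitate and oleate (left), oleate and BSA (middle) and palmitate and BSA (right), with filled points for Plin2 siRNA cells and open points for scrambled siRNA cells. In the middle panel both points lie right of 0 for 19 of 33 genes, and in the left panel both lie left of 0 for 16.

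By role, the 4 genes of ceramide use were all fitted above BSA with oleate, with a median of 0.32. Ugcg encodes the enzyme that commits ceramide to glycosphingolipids. Its expression was 10.83 with palmitate, 11.12 with oleate and 10.90 with BSA in Plin2 siRNA cells, against 10.89 with palmitate, 11.35 with oleate and 10.84 with BSA in scrambled siRNA cells. The oleate array was the highest under each siRNA, and the palmitate and BSA arrays lay close together. With oleate against BSA Ugcg was at 0.37 (SE 0.08, adjusted p = 0.22), and with palmitate against oleate at -0.37 (SE 0.08, adjusted p = 0.12). Sgms2 had 6.04 with palmitate, 6.43 with oleate and 5.88 with BSA in Plin2 siRNA cells, against 6.43 with palmitate, 6.53 with oleate and 6.31 with BSA in scrambled siRNA cells. The oleate array was the highest here too, with 0.39 against BSA (SE 0.13, adjusted p = 0.58). Cerk was at 0.28 with oleate (adjusted p = 0.70), and Sgms1 at 0.10 (adjusted p = 0.95).

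In ceramide synthesis, 6 of 7 genes were fitted above BSA with oleate and 6 of 7 lower with palmitate than with oleate. Of all 19938 genes, these were 8871 and 9163. Kdsr had 7.92 with palmitate, 8.17 with oleate and 7.95 with BSA in Plin2 siRNA cells, against 7.98 with palmitate, 8.49 with oleate and 8.08 with BSA in scrambled siRNA cells. Its highest array under each siRNA was the oleate one, with 0.32 against BSA (adjusted p = 0.52) and -0.38 for palmitate against oleate (SE 0.10, adjusted p = 0.23). Cers5 had 9.56 with palmitate, 9.88 with oleate and 9.54 with BSA in Plin2 siRNA cells, against 9.34 with palmitate, 9.77 with oleate and 9.48 with BSA in scrambled siRNA cells. Oleate again gave the highest array under each siRNA, with 0.32 for oleate against BSA (adjusted p = 0.36) and -0.38 for palmitate against oleate (SE 0.08, adjusted p = 0.12). Cers6 was at -0.21 with palmitate against BSA (adjusted p = 0.93) and at -0.28 with palmitate against oleate (adjusted p = 0.32). Single arrays decided whether these genes passed. With 1 of these arrays left out, its fatty acid is represented by a single array, which is assumed to vary like the other groups. Without the Plin2 siRNA oleate array, Ugcg passed with oleate against BSA (0.48, adjusted p = 0.00092), and Ugcg (-0.49, adjusted p = 0.00039), Kdsr (-0.49, adjusted p = 0.024) and Cers5 (-0.39, adjusted p = 0.035) passed between palmitate and oleate. Without the Plin2 siRNA palmitate array, Cers5 passed between palmitate and oleate (-0.45, adjusted p = 0.037). Those fits called 222, 462 and 387 of all 19938 genes in the comparisons concerned, against 16, 56 and 56 with every array.

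Among the genes of ceramide release and breakdown, Galc had the largest change from BSA with oleate and Smpd1 with palmitate. Galc had 6.66 with palmitate, 6.77 with oleate and 6.40 with BSA in Plin2 siRNA cells, against 6.33 with palmitate, 6.81 with oleate and 6.28 with BSA in scrambled siRNA cells. Its lowest array under each siRNA was the BSA one, with oleate against BSA at 0.45 (SE 0.13, adjusted p = 0.46). Smpd1 had 8.83 with palmitate, 8.87 with oleate and 9.11 with BSA in Plin2 siRNA cells, against 9.02 with palmitate, 9.08 with oleate and 9.25 with BSA in scrambled siRNA cells. Here BSA gave the highest array under each siRNA, with -0.26 for palmitate (SE 0.08, adjusted p = 0.87) and -0.21 for oleate (SE 0.08, adjusted p = 0.72). Sphk2 was also lower with each fatty acid than with BSA under both siRNAs, at -0.23 with palmitate and -0.21 with oleate, without passing (adjusted p = 0.94 and 0.84). In scrambled siRNA cells those differences were -0.42 and -0.33, against -0.04 and -0.09 in Plin2 siRNA cells. In the group of serine palmitoyltransferase, the largest change from BSA was 0.20 with oleate (Sptlc1, adjusted p = 0.79) and -0.16 with palmitate (Ormdl3, adjusted p = 0.96).

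The neighbouring steps of the pathway were covered by 38 further genes that had a probe set of their own. With Plin2 siRNA 3 rose (7.89%) and 7 fell (18.4%), beside the shares of all genes given above. Together 26.3% passed, against 17.1% of all genes and 31.0% of all genes with signal above the median. No share matched for signal was worked out for these 38 genes, so the falls are not shown to be an excess. The 10 genes that passed are named below, those with changes under 0.5 after their values were seen. In the lysosomal breakdown of glycosphingolipids, 3 of 7 fell and 1 rose. Hexa, a subunit of beta-hexosaminidase, was at -0.49 (adjusted p = 0.00017), Neu1, a sialidase, at -0.44 (adjusted p = 0.0058), Glb1, beta-galactosidase, at -0.38 (adjusted p = 0.0065) and the activator gene Gm2a at 0.28 (adjusted p = 0.020). Of 8 genes of transfer, export and uptake, 2 fell. Both encode surface lipid phosphatases that can act on sphingosine 1-phosphate. Plpp1 had 10.60 with palmitate, 10.72 with oleate and 10.60 with BSA in Plin2 siRNA cells, against 10.98 with palmitate, 11.43 with oleate and 11.28 with BSA in scrambled siRNA cells. The groups did not overlap, and the change was -0.59 (SE 0.07, adjusted p = 0.00017). Plpp3 changed by -0.45 (adjusted p = 0.0048). In the route that carries the aldehyde from sphingosine 1-phosphate back to fatty acyl-CoA and elongates acyl chains, 1 of 5 rose. This was Hacd3, a dehydratase of fatty acid elongation, with 9.80 with palmitate, 9.76 with oleate and 9.75 with BSA in Plin2 siRNA cells, against 8.70 with palmitate, 9.09 with oleate and 8.96 with BSA in scrambled siRNA cells. Its change of 0.85 (SE 0.08, adjusted p = 4.4e-05) also left the groups without overlap. Glycosphingolipid synthesis had 1 rise and 1 fall among 8, with St3gal5, the GM3 synthase, at 0.35 (adjusted p = 0.0022) and A4galt, the Gb3 synthase, at -0.47 (adjusted p = 0.0013). Samd8, which makes ceramide phosphoethanolamine, fell as the 1 of 10 remaining core genes past the threshold (-0.25, adjusted p = 0.019).

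With fatty acids, 1 of these 38 genes passed the threshold in any comparison. B4galt5 makes lactosylceramide from glucosylceramide, the step after Ugcg. Its expression was 8.28 with palmitate, 9.28 with oleate and 8.82 with BSA in Plin2 siRNA cells, against 8.29 with palmitate, 9.58 with oleate and 8.75 with BSA in scrambled siRNA cells. Under each siRNA oleate was highest and palmitate lowest, with hardly any difference between the siRNAs with palmitate. Palmitate against oleate gave -1.15 (SE 0.10, adjusted p = 0.00096), 0.452 times the oleate level. Against the shared BSA arrays, palmitate was at -0.50 (SE 0.10, adjusted p = 0.54) and oleate at 0.65 (SE 0.10, adjusted p = 0.056), neither past the threshold. The call between palmitate and oleate was lost without an intensity trend in the fit (adjusted p = 0.14) and with all probe sets of the array in it (adjusted p = 0.27). The promoter of B4galt5 is shown because, of the pathway genes, B4galt5 alone passed between palmitate and oleate in the main fit. The window comes from RefSeq on GRCm38.p6 at chr2:167349129-167349428 on the - strand, with GC box matches in capitals.
B4galt5: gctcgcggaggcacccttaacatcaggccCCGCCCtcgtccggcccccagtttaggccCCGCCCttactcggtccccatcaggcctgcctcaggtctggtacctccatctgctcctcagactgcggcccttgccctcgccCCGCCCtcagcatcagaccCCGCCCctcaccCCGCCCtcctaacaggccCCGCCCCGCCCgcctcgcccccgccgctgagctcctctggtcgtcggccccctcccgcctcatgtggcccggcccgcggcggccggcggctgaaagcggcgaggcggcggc
With 75.0% G and C, the window held 7 overlapping or separate GC boxes and no match to the CCAAT box, the TATA box or the half-site.

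**Figure D4:**
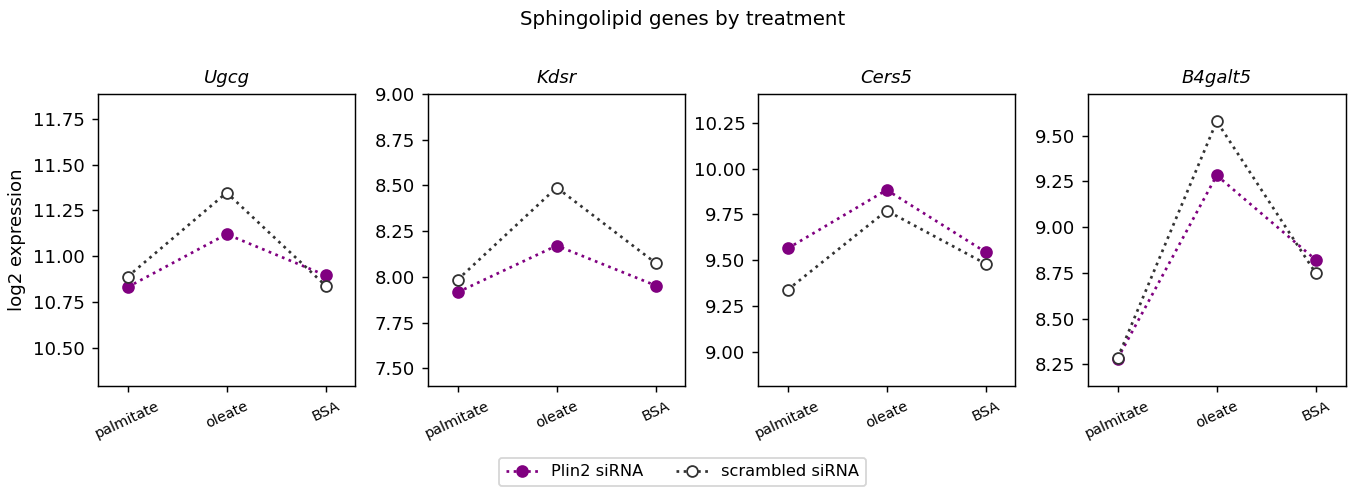
Log2 expression of Ugcg, Kdsr, Cers5 and B4galt5 with palmitate, oleate and BSA, with filled points for Plin2 siRNA cells, open points for scrambled siRNA cells and dotted lines only joining the arrays of an siRNA. The oleate array is the highest of the 3 under each siRNA in every panel, and B4galt5 shows the widest gap between palmitate and oleate, at -1.15.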

How the data were processed

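The authors deposited 1 log2 value for each probe set on each array, made with RMA per the submitters' processing notes. Its version and the build were not given in the sources used here. RMA corrects background, normalizes between arrays and summarises probes, which compresses differences of dim probe sets. The authors' values were used without further scaling or filtering. GEO's platform annotation tied 21789 of 35556 probe sets to 1 symbol and 1621 to several, and 12146 were unnamed. All 33 genes matched a RefSeq Entrez ID and 0 symbols changed.

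An additive model of siRNA and treatment was run in limma 3.58.1 (R 4.3.3, lmFit, then eBayes with an intensity trend), with 2 residual degrees of freedom and 9.21 from moderation. Benjamini-Hochberg adjustment of the 2-sided limma p-values covered all 21789 named probe sets, and 0.05 was the threshold. Counts over all genes use 1 probe set per gene. The fit was tested on simulated data. The members, lists and rules were chosen with earlier results of these data known: values in every array are given for members past the threshold and for the 3 largest changes of each comparison, and other pathway genes are named when past the threshold by at least 0.5 or with a fatty acid. Alternatives were no trend, all probe sets, no dim probe sets, quantile normalization, median centring, mean of probe sets, robust moderation, 4 arrays per fatty acid comparison, and each array left out.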

Additional observations from a re-analysis of the deposited data

Results flagged for a closer look

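The probe set that carries both the names Cers1, a ceramide synthase, and Gdf1, a secreted growth factor that shares a transcript with it, stood outside the comparisons and was higher in every Plin2 siRNA array than in every scrambled siRNA array. It had 7.57 with palmitate, 7.46 with oleate and 7.60 with BSA in Plin2 siRNA cells, against 6.98 with palmitate, 7.01 with oleate and 7.10 with BSA in scrambled siRNA cells. The difference was 0.52 (SE 0.08, limma adjusted p = 0.025 in a fit over all 35556 probe sets). The probe set was flagged because its groups did not overlap, so this p-value is not separate support. Of all genes, 15.3% had every Plin2 siRNA array above every scrambled siRNA array, so the pattern is common. With palmitate against oleate the probe set was at 0.04 (adjusted p = 0.96). Which of the genes the signal comes from cannot be told apart with this probe set.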

How the results depend on the processing

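Of the 9 sphingolipid genes past the threshold with Plin2 siRNA, Cerk and Ormdl1 passed in all 13 alternatives, and 0 of the 9 changed sign in any. These are not 13 separate checks. Leaving out either array of a treatment gives the same siRNA estimate, and averaging probe sets leaves the values of these 9 genes unchanged. The count that rose was 5, against 2 without an intensity trend, 2 when every probe set on the array was fitted, and 2 to 5 with 1 array left out. The count that fell was 4, against 1 without a trend, 1 with every probe set, 2 with median centring, and 1 to 4 with 1 array left out. Among other pathway genes, 5 in place of 3 rose without the dimmest probe sets, and 4 in place of 7 fell with every probe set. With 1 array left out, 0 to 1 sphingolipid genes passed with oleate against BSA and 0 to 3 between palmitate and oleate. The median over the set was then -0.0215 to 0.0077 for palmitate against BSA and -0.1138 to -0.0504 for palmitate against oleate, and 0.0768 to 0.103 for oleate against BSA. The fit of every probe set tests 35556 in place of 21789; the causes of the other shifts were not tested. The fit already sets the siRNAs against each other within each treatment, and no further replicate block could be added because no condition has a replicate. The number of arrays limits every value: the median 95% interval of a gene in the set reached 0.19 to either side for the siRNA and 0.23 for a fatty acid. Of the 33 genes, 7 were below the median signal.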
